A study of Citrus sinensis with 36 samples.

Results

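The 2 genes described here, Cs9g15430 and orange1.1t05560, carry a trypsin inhibitor annotation in sweet orange (Citrus sinensis). They are 2 of the 29654 genes measured in the series. They were chosen by their VO minus CO differences in fruit peel and pulp, so those differences are given below as a description without a test. RNA-seq was done on peel and pulp dissected by hand from fruit at 220 days after flowering (DAF). The Valencia oranges (VO) were the varieties Rohde Red Valencia, Delta Valencia and Cutter Valencia, and the common sweet oranges (CO) were Jincheng, Taoye and Xianfeng. Each variety gave 3 libraries per tissue, which makes 9 libraries per group and tissue and 36 in all. At this age the VO fruits were still coloring while the CO fruits had matured, so group and maturity cannot be told apart. Trees of a variety are clones grown in a single nursery, and a library pools the fruit of several trees. Expression was measured as FPKM, that is fragments scaled to the transcript length and to the total fragments of the library. These totals, worked out from the FPKM values, were 14820299 to 18842347 per library. They nearly equal the fragments counted on genes, so fragments mapped elsewhere are not included.

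Protease inhibitors of plants are small proteins that occupy the active site of a protease and so limit protein breakdown. The potato inhibitor I family blocks serine proteases such as trypsin, chymotrypsin and subtilisin through an exposed binding loop. In tomato and potato leaves, members of this family are classical products of the wound response, which is controlled by jasmonate. Both genes had as their best described match the squash (Cucurbita maxima) inhibitor of trypsin and Hageman factor, a protein of the potato inhibitor I family that also blocks a blood clotting protease of mammals. The label "trypsin inhibitor" therefore refers here to this family and not to the Kunitz type, the other common group of plant trypsin inhibitors.

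The transcript length in the deposited table was 798 bases for Cs9g15430 and 635 bases for orange1.1t05560. Through its protein accession without the version, Cs9g15430 matched the RefSeq gene LOC102623021, which lies next to the long noncoding RNA gene LOC102616444 and the protein-coding gene LOC102624458 in assembly DVS_A1.0. The same match by accession found no RefSeq gene for orange1.1t05560. Its deposited annotation does name a predicted sweet orange protein, described as inhibitor of trypsin and hageman factor-like. The study's quantitative PCR assay for Cs9g15430 used the primer pair below, which is shown because it defines the stretch of this transcript that the study amplified. The primers are 20 and 22 bases long with a GC content of 50% and 45.5%.
Cs9g15430 forward primer: ggaggttgctgctgctatta
Cs9g15430 reverse primer: aaccctaatcaccttccctttc

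Cs9g15430 was low in VO peel and high in CO peel, and in pulp the order of the groups was the opposite. In VO peel the level was 3.53, 1.75 and 1.08 FPKM in Cutter Valencia. It was 3.55, 7.17 and 5.68 FPKM in Delta Valencia peel. It was 0.545, 0.936 and 1.54 FPKM in Rohde Red Valencia peel. Delta Valencia peel was thus the highest of the VO peels and Rohde Red Valencia peel the lowest. In CO peel the level was 29.98, 36.6 and 31.2 FPKM in Jincheng. It was 27.5, 26.2 and 30.8 FPKM in Taoye peel. It was 24.9, 26.9 and 27.0 FPKM in Xianfeng peel. The CO peels were all at a similar level, and no VO peel library came near them. The means were 2.86 ± 2.32 FPKM in VO peel and 29.0 ± 3.25 FPKM in CO peel (SD, n = 3 varieties each). The VO minus CO difference was -3.70 on the log2(FPKM + 0.1) scale, a 13.01-fold lower level, and it lay between -4.98 and -2.30 over the 9 pairs of varieties.

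In pulp, Cs9g15430 stood at 4.26, 2.58 and 3.77 FPKM in Cutter Valencia. Delta Valencia pulp had 5.87, 6.95 and 7.58 FPKM. Rohde Red Valencia pulp had 15.7, 13.7 and 10.9 FPKM, so the variety with the lowest VO level in peel had the highest one in pulp. Jincheng pulp had 0.0751, 0.390 and 1.00 FPKM. Taoye pulp had 0.507, 0.917 and 1.15 FPKM. Xianfeng pulp had 0.443, 0.618 and 0.599 FPKM. Every VO pulp library was above every CO pulp library. The means were 7.93 ± 5.05 FPKM in VO pulp and 0.633 ± 0.198 FPKM in CO pulp (SD, n = 3 varieties each). The VO minus CO difference was 3.41 on the log2(FPKM + 0.1) scale, a 10.7-fold higher level, and it ranged over the variety pairs between 1.96 and 4.88. With pseudocounts of 1 and 0.01 in place of 0.1 the difference was 2.31 and 3.68, so the fold depends on the pseudocount. The CO pulp values rest on 1 to 14 fragments per library, so their order among varieties is not resolved.

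The second gene, orange1.1t05560, was higher in VO than in CO in both tissues. Its direction therefore did not depend on the tissue, and only Cs9g15430 carried opposite signs in peel and pulp. In VO peel, orange1.1t05560 had 5.16, 8.79 and 7.51 FPKM in Cutter Valencia. In Delta Valencia peel it had 5.31, 6.40 and 5.12 FPKM. In Rohde Red Valencia peel it had 3.03, 1.57 and 3.03 FPKM, the lowest VO values for this gene. In CO peel it had 1.60, 0.859 and 1.08 FPKM in Jincheng. In Taoye peel it had 0.534, 0.877 and 0.407 FPKM. In Xianfeng peel it had 0.286, 0.507 and 0.387 FPKM. The lowest library of Rohde Red Valencia peel was just under the highest library of Jincheng peel, and the other libraries of the groups were apart. The means were 5.10 ± 2.35 FPKM in VO peel and 0.727 ± 0.407 FPKM in CO peel (SD, n = 3 varieties each). The VO minus CO difference was 2.65 on the log2(FPKM + 0.1) scale, with 1.03 and 3.87 as the lowest and highest value over the 9 pairs of varieties, and it was 1.75 at a pseudocount of 1.

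In pulp, orange1.1t05560 had 4.93, 3.805 and 5.32 FPKM in Cutter Valencia. In Delta Valencia pulp it had 12.7, 14.7 and 14.2 FPKM, the highest values of this gene in the series. In Rohde Red Valencia pulp it had 5.31, 5.32 and 4.50 FPKM. In Jincheng pulp it had 0.850 and 0.196 FPKM and was listed at 0 in the last library, where a count of 0 allows up to 3 fragments or 0.290 FPKM. Taoye pulp had 0.106, 0.192 and 0.207 FPKM, and Xianfeng pulp had 0.186, 0.172 and 0.0836 FPKM. No CO pulp library reached any VO pulp library. The means were 7.87 ± 5.21 FPKM in VO pulp and 0.221 ± 0.111 FPKM in CO pulp (SD, n = 3 varieties each), with 0 to 9 fragments in each CO pulp library. The VO minus CO difference was 4.70 on the log2(FPKM + 0.1) scale. With pseudocounts of 1 and 0.01 in place of 0.1, it was 2.73 and 5.56, so its size is set in part by the pseudocount while its sign is not.

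**Figure D1:**
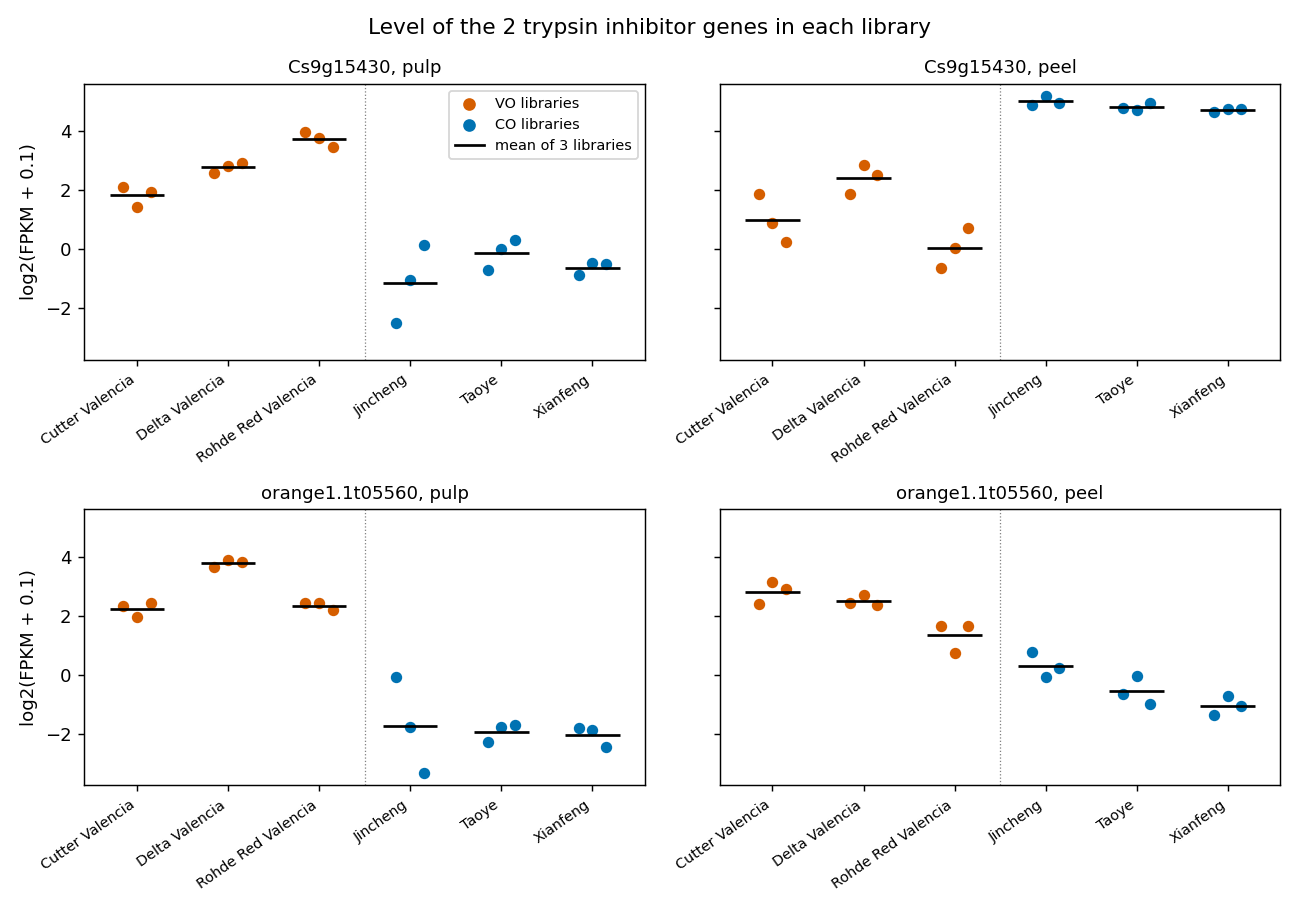
Level of both genes in each library as log2(FPKM + 0.1), with pulp on the left and peel on the right. Points are libraries (VO orange, CO blue) and bars are the means of 3 libraries. Cs9g15430 is above the CO libraries in VO pulp and below them in VO peel, and orange1.1t05560 is higher in VO in both tissues with a single overlap in peel.

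Against all genes measured, the VO minus CO difference of Cs9g15430 in peel ranked 29 of 18375 genes tested from the most negative, and its difference in pulp ranked 61 of 17222 from the most positive. The pulp difference minus the peel difference was 7.11 on the log2 scale, which ranked 1 of the 18838 genes tested. For orange1.1t05560 the ranks of the positive differences were 59 in peel and 16 in pulp. These ranks are a description, since the same values chose the genes. In the fit over all genes, 13.2% of genes passed the test as higher in VO peel and 7.15% as lower in VO peel. In pulp, 12% passed as higher in VO and 7.48% as lower in VO. After scaling the libraries by their median ratio, the higher calls made up 54.1% of all peel calls, in place of 64.9%. A change between the tissues in the VO minus CO difference passed the test in 4.88% of genes, or 919 genes, and in 40 to 684 genes when single varieties were left out, with the fewest without Rohde Red Valencia or Xianfeng. Of the 16759 genes tested in both tissues, 33 (0.197%) were called lower in VO peel and higher in VO pulp, and 14 were called with the opposite signs, while 856 were called higher in VO in both tissues.

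The 2 genes did not keep a fixed ratio to each other. In VO peel the Cs9g15430 level divided by the orange1.1t05560 level was 0.296 in Cutter Valencia, 0.975 in Delta Valencia and 0.395 in Rohde Red Valencia. In CO peel the same ratio of variety means was 27.6 in Jincheng, 46.5 in Taoye and 66.8 in Xianfeng. In VO pulp it lay between 0.489 and 2.67, and in CO pulp between 1.40 and 5.10. Cs9g15430 thus led in CO peel by more than an order of magnitude, and in VO peel orange1.1t05560 had the higher mean in Cutter and Rohde Red Valencia. In Delta Valencia peel the means were about equal, and Cs9g15430 was the higher of the pair in 2 of 3 libraries. Over the 12 variety and tissue means, Pearson's r between the 2 genes on the log2(FPKM + 0.1) scale was 0.261. Fragments of both genes were counted without strand, and whether the 2 transcripts share reads was not tested.

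Pulp minus peel of Cs9g15430 had opposite directions in the 2 groups. This opposition restates the tissue-dependent group difference that chose the gene and is not a further result. Pulp minus peel on the log2(FPKM + 0.1) scale was 0.84 in Cutter Valencia, 0.36 in Delta Valencia and 3.70 in Rohde Red Valencia. It was -6.16 in Jincheng, -4.94 in Taoye and -5.35 in Xianfeng. Rohde Red Valencia therefore had a 13.01-fold higher level in pulp, while Jincheng had a 71.5-fold lower one. Averaged over the group means, pulp minus peel was -1.92 (SE 0.45, limma adjusted p = 0.0083), with 3 varieties higher in pulp and 3 lower. This average was not called without the group term (adjusted p = 0.25), and the two-sided exact sign-flip permutation test over the 6 varieties gave p = 0.25, where 0.03125 is the smallest p the design allows. An average over opposite directions describes neither group.

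For orange1.1t05560, pulp minus peel was -0.58 in Cutter Valencia, 1.297 in Delta Valencia and 1.01 in Rohde Red Valencia. It was -2.03 in Jincheng, -1.36 in Taoye and -0.999 in Xianfeng. All the CO varieties were thus lower in pulp, and the VO varieties were split. The average was -0.44 (SE 0.27, limma adjusted p = 0.18), with 2 varieties higher in pulp and 4 lower, and the exact sign-flip permutation test gave p = 0.44. At a pseudocount of 1 this average was 0.0020. In the fit over all genes, 22.6% of genes were called higher in pulp and 50.2% lower in pulp. Median-ratio scaling raised the pulp minus peel values by a median of 0.17 on the log2 scale and the share of higher calls to 46.0% of all calls, in place of 31.1%.

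**Figure D2:**
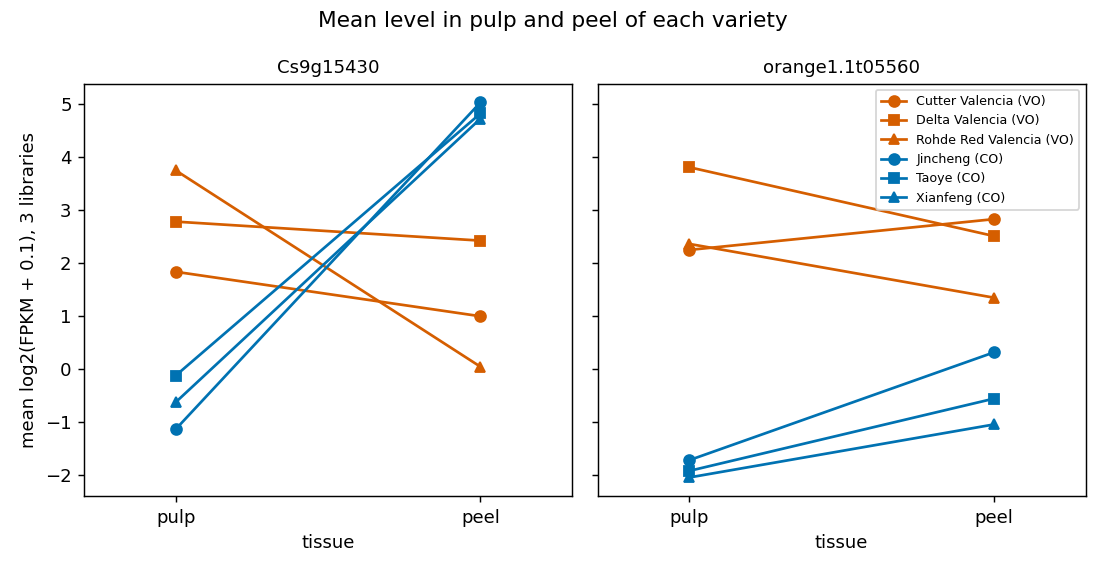
Mean log2(FPKM + 0.1) of 3 libraries in pulp and peel, with a line for each variety (VO orange, CO blue). For Cs9g15430 the CO lines climb steeply towards peel and the VO lines descend, and for orange1.1t05560 the VO lines stay above the CO lines at both ends.

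Differences between varieties of the same group were not used to choose the genes, and 4 contrasts were tested in each tissue. Within VO, Rohde Red Valencia differed from the mean of the other two varieties for Cs9g15430, with opposite signs in pulp and peel. In pulp it was higher than the mean of Cutter and Delta Valencia by 1.44 on the log2 scale (SE 0.38, limma adjusted p = 0.014), a contrast in which 17.7% of genes passed the test. In peel it was lower (-1.66, SE 0.29, limma adjusted p = 4.2e-04), with 22.1% of genes called, although its peel libraries (0.545 to 1.54 FPKM) overlapped with those of Cutter Valencia (1.08 to 3.53 FPKM) and were apart only from those of Delta Valencia. The pulp call was lost without replicate 2 (1.32, limma adjusted p = 0.19) and at a pseudocount of 0.01 (1.46, limma adjusted p = 0.056). For orange1.1t05560, Rohde Red Valencia was also lower in peel (-1.32, SE 0.25, limma adjusted p = 8.5e-04). In pulp its difference was -0.67 (SE 0.43, limma adjusted p = 0.33). This difference passed at a pseudocount of 1 (-0.60, limma adjusted p = 0.0048) and in a fit of the VO libraries alone (limma adjusted p = 0.0011). Rohde Red Valencia pulp (5.04 FPKM) was level with Cutter Valencia pulp (4.69 FPKM), and only Delta Valencia pulp (13.9 FPKM) was above it.

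Delta Valencia was called higher than Cutter Valencia for Cs9g15430 in peel and for orange1.1t05560 in pulp. For Cs9g15430 the difference was 1.43 in peel (SE 0.34, limma adjusted p = 0.0036), where 33.5% of genes were called. It was 0.94 in pulp (SE 0.44, limma adjusted p = 0.16), where 19.7% were called. For orange1.1t05560 the difference was 1.56 in pulp (SE 0.50, limma adjusted p = 0.036) and -0.32 in peel (SE 0.29, limma adjusted p = 0.44). These calls were not stable. The peel call of Cs9g15430 was lost without replicate 2 (1.15, limma adjusted p = 0.12) and without replicate 3 (0.99, limma adjusted p = 0.064). The pulp difference of Cs9g15430 was called at a pseudocount of 1 (0.79, limma adjusted p = 0.0077), without replicate 1 (1.19, limma adjusted p = 0.036) and in the VO libraries alone (limma adjusted p = 0.0038). The pulp call of orange1.1t05560 was lost at a pseudocount of 0.01 (1.58, limma adjusted p = 0.31), without replicate 2 (1.38, limma adjusted p = 0.31) and without a filter on low values (limma adjusted p = 0.057).

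Within CO, Jincheng peel had more orange1.1t05560 than Xianfeng peel by 1.36 on the log2 scale (SE 0.29, limma adjusted p = 0.0040), with 14% of all genes called. That share split into 1524 higher and 1047 lower genes, and after median-ratio scaling into 991 higher and 1417 lower. The call was lost without replicate 1 (0.97, limma adjusted p = 0.13) and without replicate 3 (1.40, limma adjusted p = 0.051). For Cs9g15430 the same contrast in peel was 0.31 (SE 0.34, limma adjusted p = 0.63), and it passed in the CO libraries alone (limma adjusted p = 0.025). In pulp, where 33.5% of genes were called, neither gene passed, at -0.51 (SE 0.44) for Cs9g15430 and 0.33 (SE 0.50) for orange1.1t05560. Taoye minus the mean of Jincheng and Xianfeng passed for neither gene, although 36.5% of genes were called in peel and 42.3% in pulp. For Cs9g15430 it was -0.05 in peel (SE 0.29) and 0.76 in pulp (SE 0.38), and for orange1.1t05560 it was -0.19 in peel (SE 0.25) and -0.04 in pulp (SE 0.43). The p-values of these contrasts rest on the spread among the 3 libraries of each variety.

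**Figure D3:**
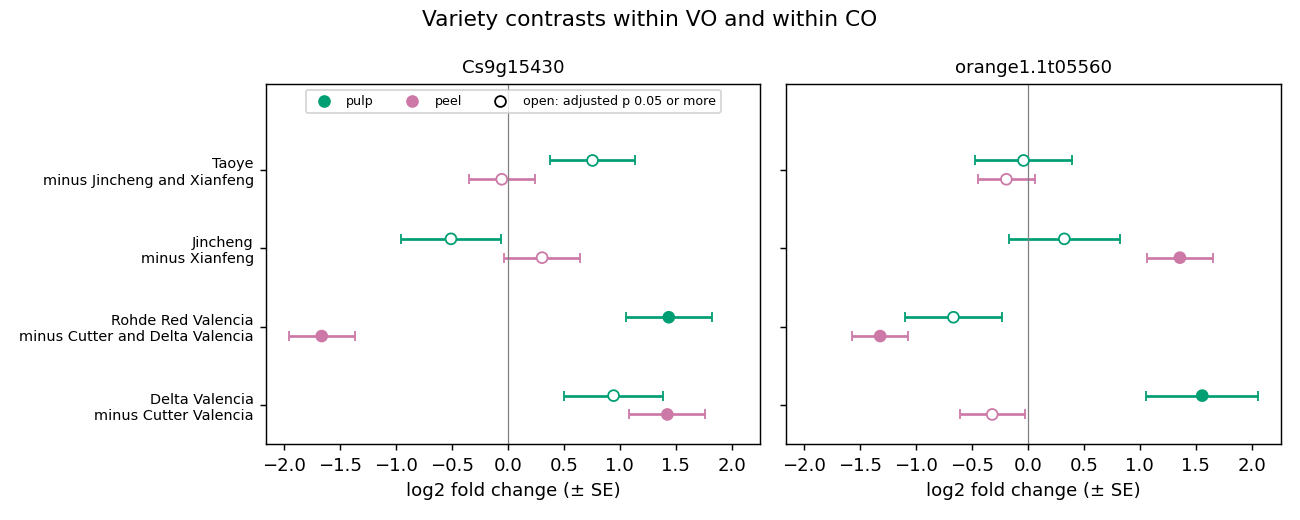
Differences between varieties of the same group for both genes, as log2 fold change ± SE in pulp (green) and peel (pink), with filled points for an adjusted p under 0.05. Rohde Red Valencia has 1.44 in pulp and -1.66 in peel for Cs9g15430, the only contrast with calls of both signs.

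The order of the 12 variety and tissue means shows how far the levels can be resolved. For Cs9g15430 the order began with Jincheng, Taoye and Xianfeng peel at 32.6, 28.2 and 26.3 FPKM. Rohde Red Valencia pulp (13.4 FPKM) and Delta Valencia pulp (6.80 FPKM) followed. Between neighbours in this order, the libraries did not overlap at 2 steps, namely Xianfeng peel to Rohde Red Valencia pulp and Rohde Red to Delta Valencia pulp. For orange1.1t05560, Delta Valencia pulp came first at 13.9 FPKM and Cutter Valencia peel second at 7.15 FPKM, without overlap of their libraries. From Cutter Valencia peel through Delta Valencia peel (5.61 FPKM) and Rohde Red Valencia pulp (5.04 FPKM) to Cutter Valencia pulp (4.69 FPKM), the libraries of neighbours overlapped. Cutter Valencia pulp and the next mean, Rohde Red Valencia peel (2.55 FPKM), did not overlap. In CO pulp the means of 0.349, 0.168 and 0.147 FPKM in Jincheng, Taoye and Xianfeng also overlapped. Cs9g15430 exceeded 60.3% of all genes in VO peel and 93.1% in CO peel, and 78.3% in VO pulp and 50.9% in CO pulp. For orange1.1t05560 the shares were 68.7% in VO peel and 48.3% in CO peel, and 78.2% in VO pulp and 44.7% in CO pulp.

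By the deposited descriptions, 11 genes belong to the potato inhibitor I family, a list that was put together after the descriptions had been read. Cs9g15430 and Cs6g06690, described as subtilisin inhibitor 1, were detected in all 36 libraries, and orange1.1t05560 in 35. Cs6g06690 averaged 34.2 ± 1.88 FPKM in VO peel and 44.3 ± 2.25 FPKM in CO peel, a log2 fold change of -0.37 (SE 0.07, limma adjusted p = 0.015). It averaged 67.2 ± 2.91 FPKM in VO pulp and 99.4 ± 7.20 FPKM in CO pulp, a log2 fold change of -0.56 (SE 0.08, limma adjusted p = 0.0064). The peel call was lost without Rohde Red Valencia (-0.37, limma adjusted p = 0.053) or Xianfeng (-0.35, limma adjusted p = 0.061). Cs6g06690 thus fell in VO in both tissues, a pattern that neither of the 2 genes had. Its pulp minus peel difference was 1.07 (SE 0.05, limma adjusted p = 4.2e-05). Cs5g13860, described as wound-induced proteinase inhibitor 1-like, had 11 fragments in 7 libraries, and none of these was a CO library. Cs8g09760, Cs9g08650, Cs9g08680 and orange1.1t03666 were listed at 0 in all 36 libraries, and Cs9g08660, Cs9g08670 and Cs9g14970 had 1 or 2 fragments in a single library each. Of the summed FPKM of the family, Cs9g15430 made up 6.78% in VO peel and 39.2% in CO peel, and 9.55% in VO pulp and 0.632% in CO pulp.

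**Figure D4:**
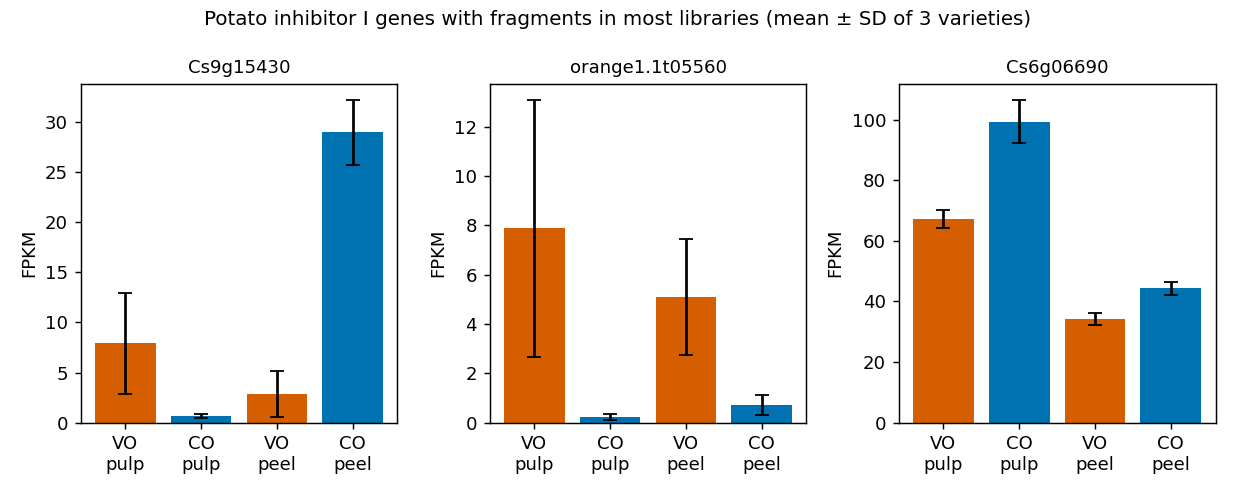
Mean FPKM ± SD of 3 varieties for the potato inhibitor I genes with fragments in most libraries (VO orange, CO blue). The CO peel bar of Cs9g15430 stands at 29.0 FPKM, the VO bars of orange1.1t05560 at 7.87 and 5.10 FPKM, and Cs6g06690 is lower in VO in both tissues.

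Other protease inhibitors of the fruit were read from 3 lists of 35 genes in all. Of these, 18 passed the low-value filter in peel, where 4 rose in VO and 3 fell, and 16 were kept in pulp, where 3 rose and 1 fell. The lists still held Cs6g06690 of the potato inhibitor I family, which was the gene that fell in pulp and 1 of the 3 in peel. Over all genes tested, 13.2% rose and 7.15% fell in VO peel, and 12% rose and 7.48% fell in VO pulp, so with so few genes the count in pulp is near that of all genes. In the Kunitz list, 4 of 7 tested genes rose in VO peel and 1 fell, and 3 of 5 rose in pulp. The list's median log2 fold change was 1.1 in peel and 0.37 in pulp, beside 0.05 and 0.02 over all genes tested. The searches for this list also took in Cs1g17290 and Cs4g07220, which are described as heavy chains of inter-alpha-trypsin inhibitor and are not of the Kunitz type. Cs1g17290 rose in VO in both tissues (0.41 in peel, 0.32 in pulp). Its pulp call held only with all the varieties or without Taoye, and its peel call was lost without Rohde Red Valencia or Xianfeng. Cs4g07220 was the gene that fell in VO peel (-0.78). The other calls of this list, all higher in VO, were Cs5g16780, Cs5g13890 and Cs5g16770 in peel and Cs5g16780 and Cs5g13890 in pulp. These genes stand in the study's own peel list, which was chosen on these samples. Only VO brought Cs5g16770 in peel, Cs5g13890 in both tissues and Cs5g16780 in pulp over the low-value filter. The counts and medians of this list are therefore a description.

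The Kunitz gene Cs5g16780 had 7.08 ± 2.75 FPKM in VO peel and 0.708 ± 0.539 FPKM in CO peel (limma adjusted p = 0.014), and 6.81 ± 4.86 FPKM in VO pulp and 0.0124 ± 0.0215 FPKM in CO pulp (limma adjusted p = 0.0059). It was thus higher in VO in both tissues, as orange1.1t05560 was. Cs5g13890, another Kunitz gene, had 0.517 FPKM in VO peel and 0.0810 FPKM in CO peel (limma adjusted p = 0.0053), and 4.05 FPKM in VO pulp and 0.0548 FPKM in CO pulp (limma adjusted p = 0.0018). The miraculin gene Cs5g16770, which belongs to the Kunitz family, had 0.846 FPKM in VO peel and 0.00485 FPKM in CO peel (limma adjusted p = 0.0019). It was at 0 in 8 of 9 CO peel libraries and was listed at 0 in all pulp libraries. The most abundant Kunitz gene, Cs1g09420, had 791 FPKM in VO pulp and 610 FPKM in CO pulp and did not pass the test (log2 fold change 0.37, limma adjusted p = 0.099). Its peel levels were 152 FPKM in VO and 171 FPKM in CO.

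Cystatins inhibit cysteine proteases of the papain type. Of 7 tested cystatin genes in each tissue, limma called 0 as higher in VO, with 1 higher in peel and 0 in pulp at an unadjusted p under 0.05, and 1 fell in VO peel. That gene, Cs3g05800, had 0.0139 FPKM in VO peel, with fragments in 1 of 9 libraries, and 7.39 ± 0.806 FPKM in CO peel (limma adjusted p = 1.4e-04). It shares with Cs9g15430 the low level in VO peel, but in pulp it had 0.0459 FPKM in VO and 1.18 FPKM in CO (limma adjusted p = 0.054). Among the cystatins tested in pulp, limma called 0 genes, with 2 lower in VO at an unadjusted p under 0.05, and Cs3g05800 was called in pulp without Taoye (-1.75, limma adjusted p = 0.042) or Xianfeng (-3.28, limma adjusted p = 0.035). Cs5g16780, Cs5g13890, Cs5g16770, Cs3g05800 and the cystatin Cs3g14620 also stand in the study's own list of peel genes with endopeptidase inhibitor activity, which was chosen on these samples. Cs9g15430 and orange1.1t05560 are themselves among the 7 genes of that list. Calls in peel of genes on the list are therefore not independent evidence. Cs3g14620 was under the filter in both tissues, at 0 FPKM in every VO peel library and 0.166 FPKM in CO peel.

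**Figure D5:**
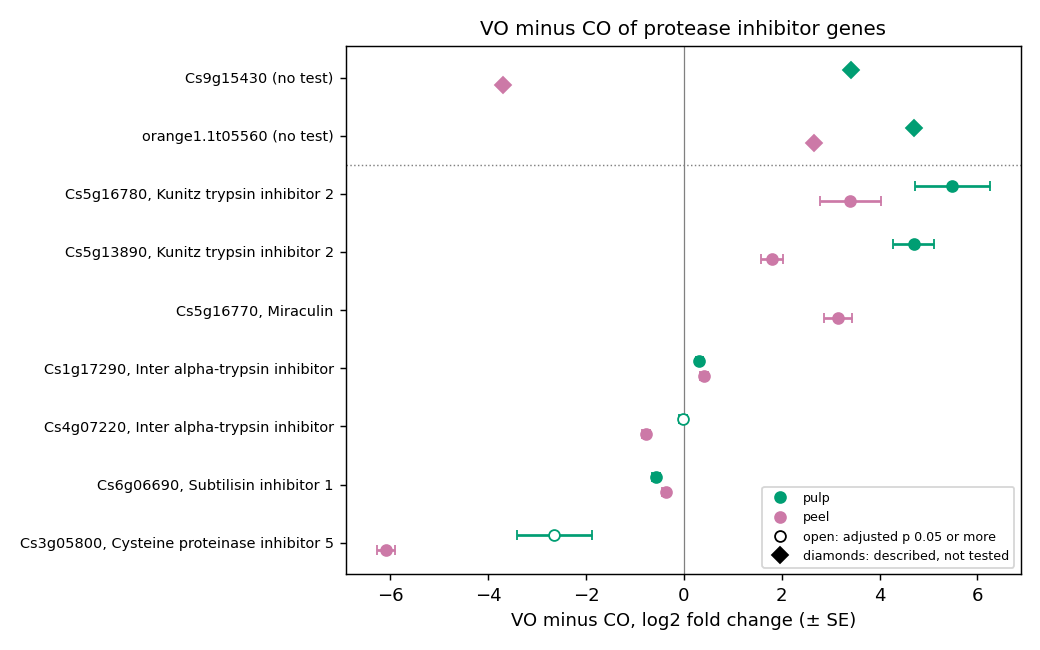
VO minus CO log2 fold change ± SE of the genes of the inhibitor lists called in either tissue, in pulp (green) and peel (pink). Open points mark an adjusted p of 0.05 or more, and diamonds mark the 2 genes that were not tested. Cs9g15430 is at 3.41 in pulp and -3.70 in peel, while orange1.1t05560 and the Kunitz genes Cs5g16780 and Cs5g13890 are to the right of 0 in both tissues.

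Proteases of several types were counted in the same fit, including types other than the serine proteases that the potato inhibitor I family blocks. The shares over all genes were 13.2% for higher and 7.15% for lower in peel, and 12% and 7.48% in pulp. Subtilases, the serine proteases of the subtilisin type, had 6 of 27 tested genes higher in VO peel and 0 lower by limma, with 2 lower at an unadjusted p under 0.05. In pulp, 5 of 24 subtilases were higher and 1 was lower. The most abundant called subtilase was Cs8g02780 (SBT1.6), with 132 FPKM in VO peel and 66.0 FPKM in CO peel (log2 fold change 1.01, limma adjusted p = 0.0040). Serine carboxypeptidases had 9 of 23 called in peel, 6 of them higher, and 7 of 20 in pulp, 5 of them higher. Papain-type proteases, the targets of cystatins, had 1 of 19 lower in VO peel and 4 of 17 lower in VO pulp, and limma called 0 higher, with 3 in peel and 2 in pulp higher at an unadjusted p under 0.05. Vacuolar processing enzymes and metacaspases had 0 of 12 called in peel by limma, which also found 0 at an unadjusted p under 0.05, and 1 higher and 2 lower of 9 in pulp. Aspartic proteases had 11 higher and 2 lower of 37 in peel, and 6 higher and 3 lower of 31 in pulp. The totals called were 22.2% of subtilases and 35.1% of aspartic proteases in peel, and 25.0% and 29.0% in pulp, beside 20.4% of all genes in peel and 19.5% in pulp. Leaving out single varieties gave 7 to 11 called aspartic proteases in peel and 5 to 9 in pulp, and 2 to 8 called subtilases in pulp.

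Jasmonate acts upstream of potato inhibitor I genes in the wound response of tomato, and the genes of the jasmonate list moved in both directions. This list was searched by description and mixes functions. Its called genes included lipoxygenase, allene oxide cyclase and TIFY genes, and also a 9S-lipoxygenase (Cs9g06650). Its counts are therefore not a measure of jasmonate itself. Of 29 tested in peel, 6 rose in VO and 7 fell, and of 27 tested in pulp, 10 rose and 2 fell. These calls make up 44.8% of the list in peel and 44.4% in pulp, beside 20.4% and 19.5% of all genes tested. Leaving out single varieties gave 4 to 13 called genes in peel, with the fewest without Xianfeng, and 3 to 12 in pulp, with the fewest without Cutter or Delta Valencia. The list's median log2 fold change was -0.22 in peel and 0.23 in pulp. The lipoxygenase gene orange1.1t04376 had 39.4 ± 8.99 FPKM in VO peel and 186 ± 33.8 FPKM in CO peel (log2 fold change -2.24, limma adjusted p = 0.0019). Another lipoxygenase gene, orange1.1t03773, had 60.6 ± 8.996 FPKM in VO pulp and 13.3 ± 4.26 FPKM in CO pulp (log2 fold change 2.22, limma adjusted p = 0.0022). Neither lipoxygenase gene changed its direction with the tissue. In pulp, orange1.1t04376 was not called (-0.56, limma adjusted p = 0.25), and in peel orange1.1t03773 was also higher in VO (1.44, limma adjusted p = 0.013). The list was not tested as a set, and a link to the 2 genes was not tested.

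Among 16327 genes whose highest of the 12 means reached 1 FPKM, the levels most like those of Cs9g15430 were found for orange1.1t00632 (a mitochondrial recA homolog, r = 0.903), Cs6g13300 (downstream neighbor of Son, r = 0.902) and Cs6g07970 (aquaporin PIP1-2, r = 0.895). Cs5g01270 (a pyruvate dehydrogenase subunit) and orange1.1t05018 (caffeic acid O-methyltransferase) followed at 0.893 and 0.890. Their range of levels was far narrower, as Cs6g07970 had 19.7 FPKM in VO peel and 43.3 FPKM in CO peel, and 17.1 FPKM in VO pulp and 7.37 FPKM in CO pulp. For orange1.1t05560 the closest genes were Cs9g08730 (cellulose synthase-like G2, r = 0.983), Cs3g07780 (a phytosulfokine precursor, r = 0.966), Cs8g04070 (the LIM domain protein WLIM1, r = 0.965), Cs8g15500 (a chloroplast ribosomal protein, r = 0.965) and Cs9g15180 (the hexose carrier HEX6, r = 0.963). Cs8g04070 had 4.82 FPKM in VO peel and 1.14 FPKM in CO peel, and 12.4 FPKM in VO pulp and 0.514 FPKM in CO pulp. Other genes of this group had a narrower range. Cs9g08730 had 79.0 FPKM in VO pulp and 25.5 FPKM in CO pulp, and Cs8g15500 had 5.54 and 3.83 FPKM there. These correlations are descriptions over 12 means that share group, tissue and libraries.

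Some markers of cell types that a dissected sample could hold differed with the group too. The counts of called markers stand beside 13.2% higher and 7.15% lower of all genes in VO peel. In VO pulp these shares were 12% and 7.48%. The summed level of 42 photosystem genes was 313 to 559 FPKM in VO peel libraries and 138 to 259 FPKM in CO peel libraries, and 277 to 318 FPKM in VO pulp and 153 to 162 FPKM in CO pulp, with 2 or 3 genes at 0. Of its tested members, 21 of 37 rose in VO peel and 24 of 35 in VO pulp, and limma called 0 lower, with 0 in peel and 1 in pulp lower at an unadjusted p under 0.05. The sum of 56 cuticle genes was 188 to 239 FPKM in VO peel and 266 to 375 FPKM in CO peel, and 215 to 259 FPKM in VO pulp and 309 to 392 FPKM in CO pulp, with 12 to 16 genes at 0. The sums were thus lower in VO while the calls of single cuticle genes leaned the other way, with 9 higher and 7 lower of 35 in peel (median log2 fold change 0.02) and 12 higher and 4 lower of 31 in pulp (median 0.85). The sum of 39 vascular genes overlapped between the groups, at 77.8 to 88.9 FPKM in VO peel and 52.3 to 82.6 FPKM in CO peel, and 24.9 to 40.8 FPKM in VO pulp and 20.9 to 36.3 FPKM in CO pulp, with 7 to 13 genes at 0. Single vascular genes did differ with the group, with 8 of 21 higher in VO peel (median log2 fold change 1.54) and 4 of 16 higher in VO pulp (median 1.1), while limma called 0 lower, with 0 in peel and 1 in pulp lower at an unadjusted p under 0.05. Seed storage genes also overlapped, at 29.2 to 35.5 FPKM in VO peel and 27.96 to 34.6 FPKM in CO peel. In pulp they were at 36.3 to 85.9 FPKM in VO and 42.6 to 60.7 FPKM in CO. Over both tissues, 2 to 6 of 29 genes were at 0. VO had 3 higher and 2 lower of 13 tested in peel and 1 higher of 18 in pulp. That is 38.5% called in peel and 5.56% in pulp, beside 20.4% and 19.5% of all genes. The part of these markers in the levels of the 2 genes was not tested. Fewer cells of a type and less RNA per cell cannot be told apart in such samples.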

How the data were processed

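Peel and pulp libraries of 6 varieties were sequenced after poly-T selection with a kit that does not mark strand. The submitters' processing notes name TopHat2, RSEM and DESeq (version 1.10.1), and the genome build is not given in the sources used here. The authors deposited FPKM values per gene, which were not scaled further, with a length per gene in the deposited table and a description by match to proteins of other species. FPKM times length fell on whole fragments for 100% of values (within 0.02), which gave the fragments of each library. The sample records write SO for the Valencia varieties, which were grouped as VO by name. The labels give 3 trees per replicate and the study's methods give another number.

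Values were analysed as log2(FPKM + 0.1), and a gene was kept where the mean of at least 1 variety reached 0.3 FPKM. VO minus CO was fitted in limma (version 3.58.1, R 4.3.3) on 6 variety means per tissue, with an intensity trend and p-values adjusted over all kept genes by Benjamini-Hochberg, at an adjusted p under 0.05. Pulp minus peel was fitted on the 6 variety differences with the group as a covariate, and variety contrasts on the 18 libraries of a tissue. The code was tested on simulated data. Counts were made over lists searched in the deposited descriptions. The 2 genes, the lists and the potato inhibitor I list were chosen with earlier results of these data known.

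Named genes were the 2 genes, inhibitor genes reaching 1 FPKM on average in a variety and tissue that were called in either tissue, the most abundant uncalled Kunitz gene, the other genes of the study's endopeptidase inhibitor list, the 5 genes most like each gene, and, of the protease and jasmonate lists, a few of the called genes with the highest level or largest fold. Cs9g15430 and orange1.1t05560 were not tested for VO minus CO. Intervals and floors cover counting error only. The libraries of a variety are named as replicates in the labels, with replicate numbers shared between varieties and tissues. Same-numbered libraries did not deviate together (correlations of -0.018 to 0.034 between pulp and peel of a variety and -0.056 to 0.072 between varieties). Tables were handled in Python 3.11.15 with pandas 2.3.3. Alternatives were other pseudocounts, filters and scalings, a replicate block, a fit without the group term, an exact sign-flip permutation test, fits of the libraries of 1 group and leaving out each variety or replicate.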

Additional observations from a re-analysis of the deposited data

Results flagged for a closer look

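The VO minus CO difference of Cs9g15430 in pulp minus that in peel was 7.11 on the log2 scale, because every VO variety was lower than every CO variety in peel and higher than every CO variety in pulp. This difference chose the gene and was not tested. For the Kunitz gene Cs5g13890 the same quantity was 2.90 (SE 0.34, limma adjusted p = 0.018), with VO higher in both tissues, and it was not called at a pseudocount of 0.01 (3.81) or without Rohde Red Valencia (2.91), Jincheng (2.81) or Xianfeng (3.12). For the miraculin gene Cs5g16770 it was -3.15, and it was -0.87 at a pseudocount of 1. This gene was listed at 0 in all pulp libraries. The value is therefore its peel difference with the sign turned, and its test adds nothing to the peel call. For the inter-alpha-trypsin inhibitor heavy chain gene Cs4g07220 it was 0.76 (SE 0.11, limma adjusted p = 0.026), with 6.33 FPKM in VO peel and 10.9 FPKM in CO peel, and 12.4 FPKM in VO pulp and 12.6 FPKM in CO pulp, and it was called without Taoye but not without any other single variety (0.66 to 0.81). These 4 results were singled out because the group difference differed between the tissues.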

How the results depend on the processing

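The signs of the VO minus CO differences of both genes were the same at other pseudocounts and after median-ratio scaling. Leaving out a variety could not change them, since every pair of a VO and a CO variety had the same sign. The genes were chosen by these differences, so the unchanged signs are not evidence for them. With a pseudocount of 1 the difference of orange1.1t05560 was 1.75 in peel and 2.73 in pulp and that of Cs9g15430 was 2.31 in pulp, and with a pseudocount of 0.01 that of orange1.1t05560 in pulp was 5.56. The low counts of CO pulp limit these sizes. Pulp minus peel of Cs9g15430 kept its value of -1.92 without the group term and in the exact sign-flip permutation test but was then not called (adjusted p = 0.25, p = 0.25), and for orange1.1t05560 it was 0.0020 at a pseudocount of 1.

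With libraries as replicates and a replicate block, which ignores the variety, 9053 genes in peel and 8882 in pulp were called between VO and CO, in place of 3740 and 3358, with 12 and 11 inhibitor genes and 62 and 63 protease genes in peel and pulp. Leaving out each variety gave 1527 to 3382 genes in peel and 1320 to 3426 in pulp, where fewer varieties were tested, with 18 to 29 protease genes in pulp. Same-numbered libraries share only a number, and with the replicate block no call of the 2 genes changed (pulp minus peel of Cs9g15430 was -1.92).

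Among variety contrasts of the 2 genes, the values that passed or lost the threshold were as follows, and the cause was not tested. In the libraries of the group alone, Jincheng minus Xianfeng peel (0.31) and Delta minus Cutter Valencia pulp (0.94) passed for Cs9g15430, and Rohde Red Valencia in pulp (-0.67) for orange1.1t05560. At a pseudocount of 1, Delta minus Cutter Valencia pulp passed for Cs9g15430 (0.79) and Rohde Red Valencia in pulp for orange1.1t05560 (-0.60). At a pseudocount of 0.01, Rohde Red Valencia in pulp lost its call for Cs9g15430 (1.46) and Delta minus Cutter Valencia in pulp for orange1.1t05560 (1.58, and 1.56 without a filter), and the uncalled pulp contrasts of orange1.1t05560 turned to 0.36 for Taoye and -0.30 for Jincheng minus Xianfeng.

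Without single replicates, the gene counts of the variety contrasts were 1246 to 1788 (Jincheng minus Xianfeng), 2527 to 3053 (Rohde Red Valencia) and 4045 to 4511 (Delta minus Cutter Valencia) in peel, and 1740 to 1887 (Rohde Red Valencia) and 1985 to 2119 (Delta minus Cutter Valencia) in pulp, where fewer libraries were tested. For Cs9g15430 the ranges were 0.99 to 2.14 for Delta minus Cutter Valencia in peel and 0.72 to 1.19 in pulp, 1.32 to 1.65 for Rohde Red Valencia in pulp, -0.12 to 0.046 for Taoye in peel and -1.09 to 0.053 for Jincheng minus Xianfeng in pulp. For orange1.1t05560 they were 0.97 to 1.71 for Jincheng minus Xianfeng in peel and -0.38 to 0.93 in pulp, 1.38 to 1.66 for Delta minus Cutter Valencia in pulp, and -0.47 to 0.0010 in peel and -0.65 to 0.61 in pulp for Taoye. The contrasts that crossed 0 were uncalled throughout. Without single varieties, the uncalled VO minus CO values of Cs1g09420 in peel (-0.35 to 0.037) and Cs4g07220 in pulp (-0.073 to 0.032) also crossed 0.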
